A study of Mus musculus with 10 samples.

Results

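The nuclear genes for the respiratory chain and the ATP synthase were read in mouse liver as 95 probe sets, 1 for each of 95 genes, out of the 22206 probe sets of the array. They were chosen by gene symbol alone, as the names beginning with Nduf, Uqcr, Cox4 to Cox8 or Atp5, together with Sdha to Sdhd, Cyc1 and Cycs, and no measured value entered the choice. Complex I gave 36 of them and its assembly factors 8, complex II gave 4, complex III 9, cytochrome c 1, complex IV 20 and complex V 17. Ndufa4 and Ndufa4l2 were placed with complex IV, where their proteins are now assigned.

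The respiratory chain sits in the inner mitochondrial membrane and passes electrons from NADH, through complex I, or from succinate, through complex II, to coenzyme Q. Complex III hands them on to cytochrome c and complex IV to oxygen, and the protons moved on the way drive complex V, the ATP synthase. The liver, which oxidises fatty acids and amino acids and regenerates NAD+ while it breaks down ethanol and acetaldehyde, depends on this chain.

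Liver RNA of 10 male C57BL/6N mice, bought at 8 weeks of age and kept on the AIN-93G diet, was hybridised to Clariom S arrays, 1 mouse on each. The iso-α-acids diet group (n = 5) ate AIN-93G with 0.5% (w/w) iso-α-acids, bitter compounds of hops and beer, for 1 week. The control diet group (n = 5) was pair-fed AIN-93G without them to the same intake. All 10 mice then received 200 mg/kg of acetaldehyde by i.p. injection and the livers were taken 5 h later, so that each difference is between diets after acetaldehyde and no liver without acetaldehyde was compared. The mice on the arrays had been picked from larger groups as typical by their serum enzyme values and are not a random draw. Levels and differences are on the log2 scale, differences are the iso-α-acids diet group minus the control diet group, and the iso-α-acids diet mice are called iso 1 to iso 5 by their replicate numbers.

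The summarised values of 54 of the 95 probe sets were flat, with an SD over the 10 arrays under 0.001, and 41 (43.2%) varied, against 2439 (11.0%) of all 22206. A flat probe set says nothing about the RNA it reads, in either direction. The largest difference between the diets among the flat members was 0.00051, and their median SD was 1.05e-05. Of the members nearest the limit, Ndufs5 (SD 0.0022) and Atp5c1 (SD 0.0014) lay just inside the varying class, and Cox7a2 (SD 0.00089) and Ndufc2 (SD 0.00036) just outside it. Varying probe sets made up 11 of 36 for complex I, 0 of 8 for its assembly factors, 3 of 4 for complex II, 5 of 9 for complex III, 1 of 1 for cytochrome c, 9 of 20 for complex IV and 12 of 17 for complex V. The flat ones included Ndufv1, the subunit that binds NADH, Cyc1, the cytochrome c1 of complex III, and Cox4i1 and Cox5a, both structural subunits of complex IV. The isoforms that belong mainly to muscle, testis, lung or other tissues, Cox4i2, Cox6a2, Cox6b2, Cox7a1, Cox7b2, Cox8b, Cox8c and Ndufa4l2, were all flat, with levels between 5.50 (Cox7b2) and 6.96 (Cox6a2) in both groups.

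In the whole table, limma, a linear model for each probe set with a variance moderated across all of them, called 131 probe sets higher and 38 lower in the iso-α-acids diet group at a Benjamini-Hochberg adjusted p under 0.05. The array of iso 1 stood apart from its group. Its root mean square distance from iso 2 to iso 5 over the varying probe sets was 0.62 to 0.65, against 0.13 to 0.17 among iso 2 to iso 5 and 0.18 to 0.36 among the controls. Results for members are therefore given with and without this mouse. The hepatocyte genes Alb, Apoa1 and Ttr were flat at levels of 13.23, 13.16 and 13.10. Of the Kupffer cell markers, 6 of 7 were measured and 4 varied, and all 4 had lower means in the iso-α-acids diet group, by 0.66 for Clec4f, 0.54 for Cd5l, 0.56 for Vsig4 and 0.31 for Adgre1. With p adjusted over the whole table, limma called 0 of the 4 (adjusted p = 0.068 to 0.239). Rank products called all 4 downregulated (3.17% of all probe sets and 28.2% of the varying ones). Limma fitted on varying probe sets alone called all 4 lower (6.89% of those). For 3 of the 4 the groups did not overlap (7.3% of varying probe sets). The mean of the 4 was -0.29 to 0.21 in the controls and -0.73 to -0.39 in the iso-α-acids diet group, relative to the control mean. In bulk liver, fewer cells of a type and less RNA per cell cannot be told apart, and the part of this difference in the results below was not tested. Of 6 measured hepatocyte markers the 3 that varied differed by 0.19 (Cyp2e1), -0.088 (Tat) and -0.12 (Cps1). Without iso 1, Cps1 was at -0.20 and passed limma's test (adjusted p = 0.0467, against 0.741 with all mice). The 3 varying endothelial markers, of 6 measured, differed by -0.16 to -0.062, the 2 varying stellate cell markers, of 6, by -0.14 (Hgf) and -0.084 (Dcn), and the 1 varying cholangiocyte marker, Sox9, of 4, by 0.063. Without iso 1 these were -0.18 to -0.10 for the endothelial markers, -0.22 (Hgf), -0.13 (Dcn) and 0.052 (Sox9). Rank products called 1 hepatocyte marker up and 1 down, 2 endothelial markers and 1 stellate cell marker down, and 0 cholangiocyte markers. The called markers all varied, and rank products called 33.2% of all varying probe sets up and 28.2% down. The measured red cell gene, Alas2, was at 7.45 in iso 1 and at most 9.41 in iso 2 to iso 5, against 9.47 to 9.85 in the controls. All 5 iso-α-acids diet mice were below every control, by a mean of 0.68 with iso 1 and 0.30 without it (adjusted p = 0.639 and 0.152 by limma), and rank products called the gene downregulated. Its part in the values of the members was not tested. The lymphocyte, neutrophil, skeletal muscle and adipocyte markers were all flat.

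The promoters of several of these genes share a short sequence that the choice of the genes did not use. RefSeq promoters of GRCm38.p6, each 300 bases with 250 before and 50 after the start of a gene, were found for 78 of the 95 genes, 83 promoters in all. The element GCGCANGCG, a relaxed form of the site of nuclear respiratory factor 1, which is known to control nuclear genes of the respiratory chain, lay on either strand in 24 of the 83 (28.9%). It lay in 6.25% of all 32851 promoters, in 15 of the 37 promoters of varying members (40.5%) and in 9 of the 46 of flat members (19.6%). Its strict form GCGCATGCG, which the relaxed form contains, was in 13.3% of the members' promoters and in 1.75% of all. The ETS core CCGGAAG was in 22.9% against 8.86%, the YY1 site AAGATGGCG in 9.64% against 1.4%, and the Sp1 core GGGCGG in 44.6% against 35.7%. The site of the estrogen-related receptors, TCAAGGTCA, was in 2.41% against 0.423%, in Atp5g3 and Sdhd. For varying and flat members apart, the strict form was in 13.5% and 13%, and the ETS core in 24.3% and 21.7%. The YY1 site was in 5.41% and 13%, the Sp1 core in 40.5% and 47.8%, and the estrogen-related receptor site in 5.41% and 0%. The split between varying and flat members was not tested for any motif. All motif counts are matches of letters and were not tested as binding sites.

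One promoter for each complex is shown because its gene is described below and it holds the relaxed element, printed in capitals on whichever strand it lies, with the rest in lower case and all 5′ to 3′ along the gene. The windows are Ndufa5 at chr6:24527477-24527776 on the minus strand, Sdha at chr13:74350191-74350490 on the minus strand, Uqcrc1 at chr9:108936398-108936697 on the plus strand, Cox6a1 at chr5:115348909-115349208 on the minus strand and Atp5g2 at chr15:102670998-102671297 on the minus strand.
Ndufa5: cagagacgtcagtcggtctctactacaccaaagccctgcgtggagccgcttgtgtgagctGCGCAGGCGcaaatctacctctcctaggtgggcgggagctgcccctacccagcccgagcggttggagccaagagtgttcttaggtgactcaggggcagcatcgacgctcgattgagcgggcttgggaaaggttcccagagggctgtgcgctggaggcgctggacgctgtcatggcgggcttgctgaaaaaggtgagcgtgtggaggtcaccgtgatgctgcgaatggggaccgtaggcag
Sdha: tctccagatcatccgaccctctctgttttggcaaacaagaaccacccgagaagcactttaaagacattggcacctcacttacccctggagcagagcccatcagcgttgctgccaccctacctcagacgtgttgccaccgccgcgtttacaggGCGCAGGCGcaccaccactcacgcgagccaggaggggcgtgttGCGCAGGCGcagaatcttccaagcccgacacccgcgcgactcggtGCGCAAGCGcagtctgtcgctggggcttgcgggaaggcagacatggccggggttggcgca
Uqcrc1: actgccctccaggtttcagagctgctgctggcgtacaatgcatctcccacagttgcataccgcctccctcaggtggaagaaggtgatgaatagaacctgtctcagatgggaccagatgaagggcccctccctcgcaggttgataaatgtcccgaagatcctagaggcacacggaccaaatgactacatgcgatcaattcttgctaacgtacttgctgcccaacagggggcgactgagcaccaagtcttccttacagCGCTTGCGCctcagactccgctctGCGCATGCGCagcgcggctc
Cox6a1: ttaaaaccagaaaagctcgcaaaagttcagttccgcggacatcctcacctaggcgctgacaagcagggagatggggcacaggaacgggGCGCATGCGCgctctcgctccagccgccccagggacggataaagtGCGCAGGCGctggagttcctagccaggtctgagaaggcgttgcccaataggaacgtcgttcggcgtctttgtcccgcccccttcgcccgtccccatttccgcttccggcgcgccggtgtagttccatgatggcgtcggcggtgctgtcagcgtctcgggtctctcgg
Atp5g2: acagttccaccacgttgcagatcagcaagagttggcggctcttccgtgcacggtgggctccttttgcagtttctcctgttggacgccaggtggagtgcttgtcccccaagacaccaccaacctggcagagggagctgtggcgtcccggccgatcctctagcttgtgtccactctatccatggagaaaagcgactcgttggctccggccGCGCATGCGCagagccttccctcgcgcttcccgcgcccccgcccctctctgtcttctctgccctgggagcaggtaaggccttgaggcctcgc
Ndufa5 has 1 run of capitals, Sdha 3, Uqcrc1 2, Cox6a1 2 and Atp5g2 1, and the strict form, which reads on both strands where it is a full palindrome, occurs in Uqcrc1, Cox6a1 and Atp5g2. Ndufa5 had 2 promoters in the table, of which 1 is shown.

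Between the diets the varying members lay mostly on the same side. Their mean was higher in the iso-α-acids diet group for 39 of 41 (95.1%) and lower for Uqcrh and Atp5g1. Without iso 1 the difference was -0.043 for Uqcrh and -0.00070 for Atp5g1. Among all 2439 varying probe sets the mean was higher for 53.6%. Varying genes of other mitochondrial lists, described below, lay mostly on the higher side too. These were 11 of 11 ribosomal proteins, 5 of 5 import and cristae genes and 4 of 4 other assembly factors. So were 3 of 3 genes for the exchange of ADP and phosphate, 4 of 5 for coenzyme Q synthesis and 6 of 7 other dehydrogenases. The 1 varying regulator of mitochondrial biogenesis, Ppara, was lower. The median difference of the 41 was 0.077, against 0.0073 for all varying probe sets, and the single differences ran from -0.067 to 0.18. Without iso 1 the median was 0.12, against 0.016. The medians of the other lists, Ppara left out, ran from 0.051 to 0.18 with all mice. Because all members were read on the same arrays, these counts are a description and carry no test. They also moved with the scaling: when the arrays were quantile normalized again, 33 of the 41 differences were above 0, with a median of 0.045, beside 47.9% of all varying probe sets.

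With p adjusted over the whole table, limma called 0 of the 95 members higher, where it called 0.59% of all probe sets, and 0 lower, where it called 0.171%. At an unadjusted p under 0.05, 9 members were higher (4.81% of all probe sets) and 2 lower (5.02%). Among varying probe sets these were 8 and 0 of 41, where the share of all varying probe sets was 22.6% and 14.6%. The 2 lower members, Cyc1 and Uqcrq, were flat. Rank products, the test that the methods name, ranks the differences between pairs of arrays and was computed here in the version described below. It called 11 members upregulated and 0 downregulated at an FDR under 0.05, against 3.68% and 3.17% of all probe sets. The 11 were Ndufa5, Ndufb4, Ndufb4b, Ndufc2, Sdha, Uqcr10, Cox5b, Cox6a1, Cox8a, Atp5g2 and Atp5g3. Of these, 10 varied, out of 41, while 33.2% of all varying probe sets were called upregulated and 28.2% downregulated, so the share upregulated among the members was no larger than that background. Ndufc2 was flat, with a difference of 0.00051.

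**Figure D1:**
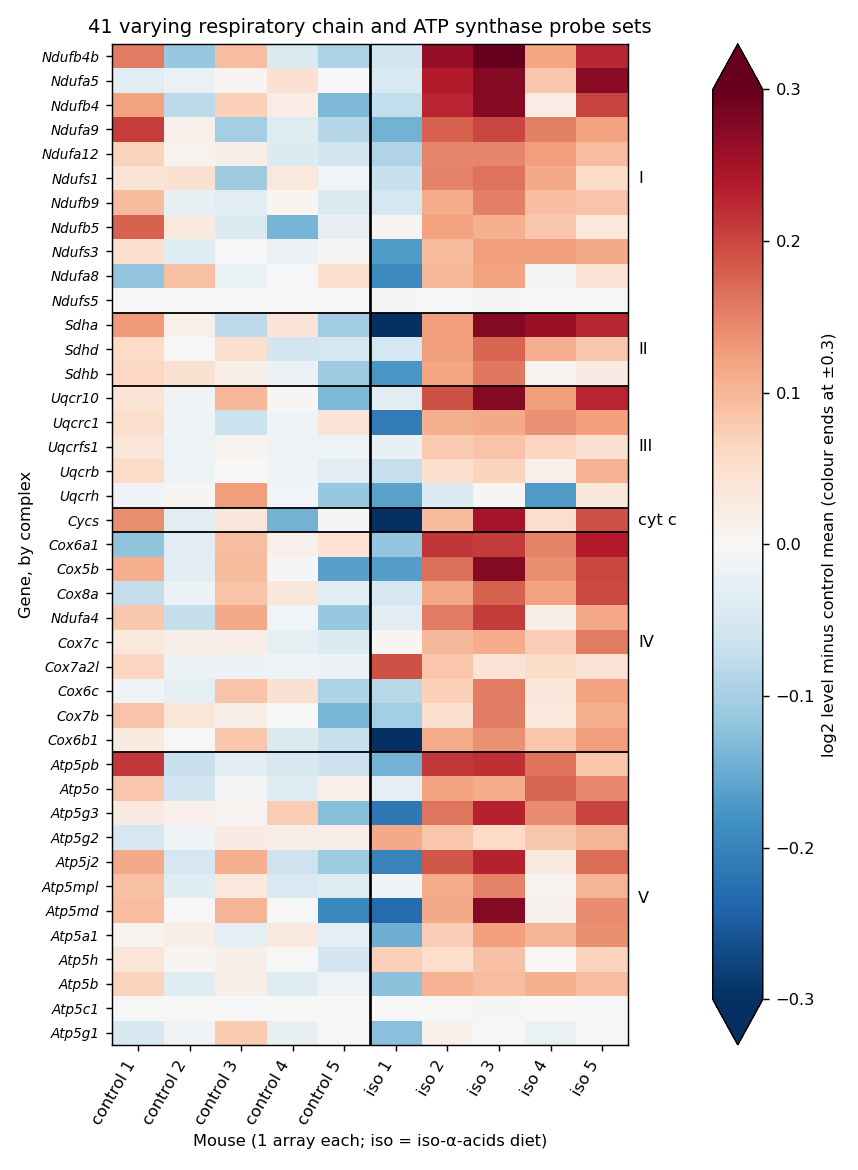
Deviation of each of the 41 varying members (one line per gene, by complex) from its control mean in each of the 10 mice, on the log2 scale with colours ending at ±0.3. Iso 2 to iso 5 are mostly above the control mean (red), and iso 1 is below it (blue) for 36 of the 41 genes.

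One mouse of the iso-α-acids diet group set most of the spread. Iso 1 was below the control mean in 36 of the 41 varying members, below all 5 controls in 24, and the lowest of all 10 mice in 23. In contrast, iso 2 was above the control mean in 40, iso 3 in 41, iso 4 in 37 and iso 5 in 41. Iso 3 was the highest of all 10 mice in 25. For 37 members all of iso 2 to iso 5 lay above the control mean, and for 33 of those iso 1 lay below it. The mean over the 41 members, relative to the controls, was -0.10 in iso 1, 0.073 to 0.16 in iso 2 to iso 5 and -0.052 to 0.053 in the controls. The mean of all 2439 varying probe sets was also below 0 in iso 1 (-0.031) and above it in iso 2 to iso 5 (0.052 to 0.091). The SD of the iso-α-acids diet group was larger than that of the controls for 38 of the 41, with medians of 0.10 and 0.061, and the median was 0.040 for iso 2 to iso 5 alone.

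Without iso 1, limma called 2 members higher, Ndufs3 (adjusted p = 0.0181) and Atp5a1 (adjusted p = 0.0272), and 0 lower, against 1.57% and 0.662% of all probe sets. With the flat probe sets also left out of the fit, a setting chosen after seeing the data, it called 21 of 41 higher and 0 lower, against 26.6% and 14.2% of the varying probe sets. The 21 were 6 of complex I, 2 of complex II, 3 of complex III, 5 of complex IV and 5 of complex V. The levels of iso 2 to iso 5 and of the controls did not overlap for 18 of the 41, all higher, against 24.4% of varying probe sets higher and 12.7% lower. With all 10 mice the groups were apart for 1 of 41, Atp5g2, against 12.1% higher and 7.3% lower. Iso 1 was left out after its values were seen, and the background without it is larger too, so each count is to be read beside its own.

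**Figure D2:**
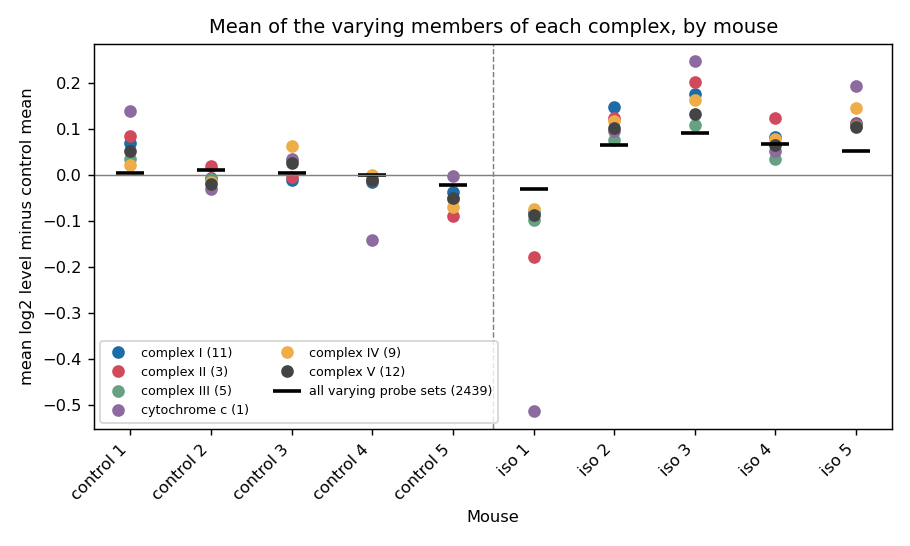
Mean of the varying members of each complex in each mouse, as the log2 level minus the control mean, with the number of probe sets in the legend and black bars for all 2439 varying probe sets. The means of iso 1 lie below 0 for complexes I to V and for cytochrome c, and those of iso 2 to iso 5 above 0.

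Complex I, the NADH dehydrogenase, had 11 varying subunits and all 11 had positive differences, with a median of 0.083 (0.12 without iso 1). Their mean was -0.081 in iso 1, 0.082 to 0.18 in iso 2 to iso 5 and -0.036 to 0.070 in the controls. Ndufa5, an accessory subunit of the arm that reaches into the matrix, had levels of 8.91, 8.92, 8.95, 8.99 and 8.94 in the controls and 8.90, 9.18, 9.22, 9.02 and 9.21 in iso 1 to iso 5. Iso 2 to iso 5 were above all controls, and iso 1 was the lowest of the 10. The difference was 0.16 ± 0.063 (SE, n = 5 and 5, 1.12-fold, 95% CI 0.019 to 0.31), with an adjusted p of 0.426 by limma and 0.0514 without iso 1. Ndufb4b and Ndufb4, gene copies for an accessory subunit of the membrane arm, had differences of 0.18 ± 0.088 and 0.13 ± 0.080 (SE). Whether their probes tell the copies apart was not tested, so they may not be separate readings. Ndufs1, the largest iron-sulfur subunit at the electron entry, had a difference of 0.083 ± 0.049 (SE, adjusted p = 0.668).

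Ndufs3, a core subunit of the matrix arm, was split within the iso-α-acids diet group. Its levels were 10.89, 10.81, 10.84, 10.83 and 10.85 in the controls and 10.67, 10.94, 10.97, 10.97 and 10.96 in iso 1 to iso 5. Iso 1 was the lowest mouse and the other 4 were above every control. The difference was 0.058 ± 0.058 (SE, adjusted p = 0.839 by limma) with all mice and 0.12 (1.08-fold) without iso 1. Ndufs5 varied by so little that its difference was 0.00073. The 8 assembly factors named Ndufaf were flat, and nothing is read from them.

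Complex II, the succinate dehydrogenase that also serves the citric acid cycle, had 3 varying subunits of 4, all with positive differences, and a median of 0.088 (0.12 without iso 1). Sdha, the flavoprotein that oxidises succinate, had levels of 9.64, 9.52, 9.43, 9.55 and 9.41 in the controls and 9.20, 9.63, 9.79, 9.76 and 9.74 in iso 1 to iso 5. Iso 3, iso 4 and iso 5 were above all controls, iso 2 was level with the highest, and iso 1 was the lowest of the 10. The difference was 0.11 ± 0.11 (SE, 95% CI -0.15 to 0.38, adjusted p = 0.841 by limma), and it was 0.22 without iso 1, with an adjusted p of 0.116. Sdhd, a membrane anchor, differed by 0.088 ± 0.044 (SE, adjusted p = 0.59). Sdhb, the iron-sulfur subunit, differed by 0.027 ± 0.064 (SE), and this turned to -0.0058 without iso 3 and to -0.014 after another quantile normalization. The second anchor, Sdhc, was flat.

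**Figure D3:**
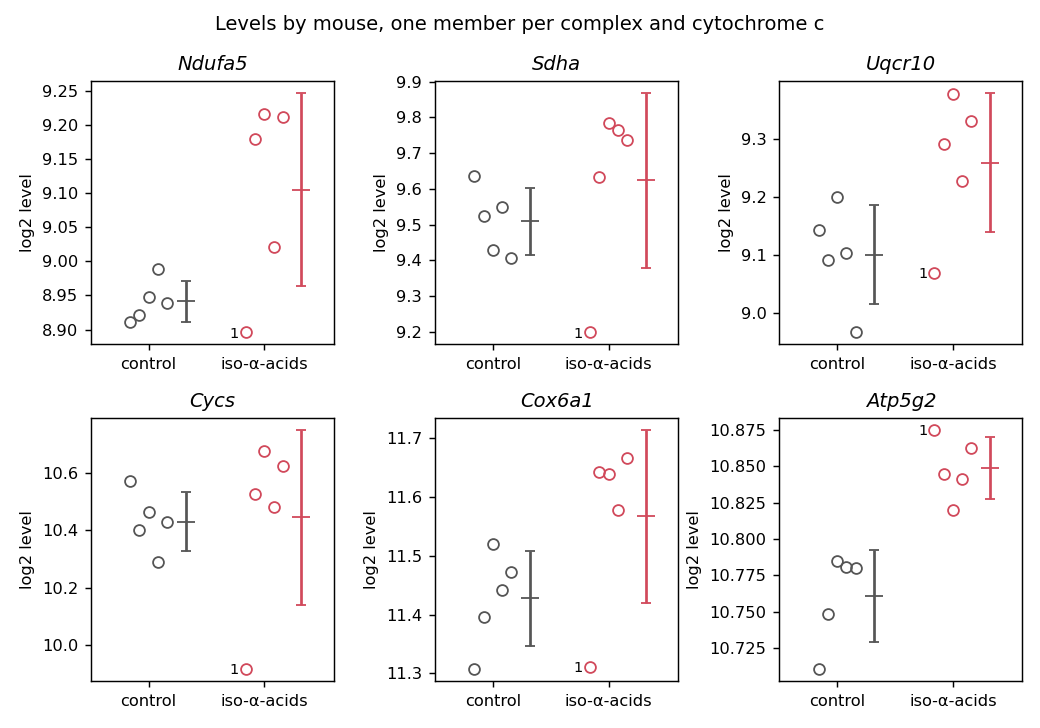
Levels (log2, separate axes) of Ndufa5, Sdha, Uqcr10, Cycs, Cox6a1 and Atp5g2 in the 5 control (grey) and 5 iso-α-acids diet mice (red), with the mean and SD of each group beside the points. Iso 1, marked 1, is below the other iso-α-acids diet mice in 5 panels and is the highest of all mice for Atp5g2.

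In complex III, the cytochrome bc1 complex, 4 of 5 varying subunits had positive differences, with a median of 0.050 (0.068 without iso 1). Uqcr10, a small subunit, had levels of 9.14, 9.09, 9.20, 9.10 and 8.97 in the controls and 9.07, 9.29, 9.38, 9.23 and 9.33 in iso 1 to iso 5. Iso 2 to iso 5 were above all controls and iso 1 lay within their range. The difference was 0.16 ± 0.064 (SE, 1.12-fold, 95% CI 0.011 to 0.31, adjusted p = 0.463 by limma). Uqcrfs1, the Rieske iron-sulfur protein, differed by 0.050 ± 0.021 (SE, adjusted p = 0.495), and Uqcrc1, a core protein, by 0.054 ± 0.068 (SE), or by 0.12 without iso 1. Uqcrh, the hinge protein that assists the contact with cytochrome c, was 1 of the 2 members with a negative difference. It was at 10.25 to 10.49 in the controls and at 10.20 to 10.40 in the iso-α-acids diet group, so the groups overlapped, and the difference was -0.067 ± 0.055 (SE, adjusted p = 0.789).

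Cycs, the soluble carrier cytochrome c, was at 10.57, 10.40, 10.46, 10.29 and 10.43 in the controls and at 9.92, 10.53, 10.68, 10.48 and 10.62 in iso 1 to iso 5. Iso 1 was 0.51 below the control mean, the widest gap of any member in this mouse, while iso 3 and iso 5 were above all controls. The difference was 0.015 ± 0.14 (SE, 95% CI -0.31 to 0.34, adjusted p = 0.987 by limma), and 0.15 without iso 1. It turned to between -0.043 and -0.0053 when control 4, iso 2, iso 3 or iso 5 was left out, and to -0.025 after another quantile normalization.

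Complex IV, cytochrome c oxidase, had 9 varying members, all with positive differences, and a median of 0.089 (0.12 without iso 1). Cox6a1, the isoform of a regulatory subunit used outside heart and skeletal muscle, had levels of 11.31, 11.40, 11.52, 11.44 and 11.47 in the controls and 11.31, 11.64, 11.64, 11.58 and 11.67 in iso 1 to iso 5. Iso 2 to iso 5 were above all controls and iso 1 was level with the lowest control. The difference was 0.14 ± 0.073 (SE, 1.10-fold, 95% CI -0.028 to 0.31, adjusted p = 0.608 by limma). Cox5b, which holds a zinc ion, differed by 0.12 ± 0.089 (SE) and Cox8a, the smallest of the subunits, by 0.11 ± 0.051 (SE), with adjusted p values of 0.741 and 0.524. Cox7c, another small subunit, was at 12.11 to 12.19 in the controls and at 12.16 to 12.31 in the iso-α-acids diet group. Only iso 1 lay within the control range, and the difference was 0.089 ± 0.028 (SE, adjusted p = 0.297).

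Cox7a2l, which is related to a complex IV subunit and helps to join complexes III and IV into a supercomplex, went the other way in iso 1. It was at 9.05, 8.97, 8.97, 8.97 and 8.97 in the controls and at 9.18, 9.07, 9.03, 9.04 and 9.03 in iso 1 to iso 5. Here iso 1 was the highest of the 10 mice, control 1 was apart from the other controls, and the groups overlapped through control 1. The difference was 0.083 ± 0.032 (SE, adjusted p = 0.418 by limma) with all mice and 0.056 without iso 1.

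Complex V, the ATP synthase, had 12 varying subunits, 11 with positive differences, and a median of 0.067 (0.10 without iso 1). Atp5g2 encodes the c subunit, which forms the rotating ring in the membrane. Its levels were 10.71, 10.75, 10.78, 10.78 and 10.78 in the controls and 10.88, 10.84, 10.82, 10.84 and 10.86 in iso 1 to iso 5. All 5 iso-α-acids diet mice were above all 5 controls, iso 1 being the highest. The difference was 0.088 ± 0.017 (SE, n = 5 and 5, 1.06-fold, 95% CI 0.049 to 0.13), the largest relative to its error among the members named here, with an adjusted p of 0.0701 by limma. It passed when the varying probe sets were fitted alone (adjusted p = 0.0206), and over all settings run its adjusted p lay between 0.0145 and 0.441. That fit of varying probe sets called 1 of the 41 members higher and 0 lower, against 13.4% and 6.89% of the varying probe sets.

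The same c subunit is encoded by 2 other genes, Atp5g3 and Atp5g1, and differences between the 3 genes were not tested. Atp5g3 was at 10.20 to 10.41 in the controls and 10.12, 10.49, 10.56, 10.47 and 10.53 in iso 1 to iso 5, a difference of 0.10 ± 0.086 (SE) that was 0.18 without iso 1. Atp5g1 was at 10.75 to 10.88 in the controls and 10.67 to 10.82 in the iso-α-acids diet group. Its difference was -0.026 ± 0.033 (SE, adjusted p = 0.883) with all mice and -0.00070 without iso 1. For both Atp5g3 and Atp5g1, iso 1 was the lowest of the 10 mice. Of the catalytic head, Atp5a1 (α subunit) differed by 0.058 ± 0.053 (SE) and Atp5b (β subunit) by 0.054 ± 0.048 (SE). For both, iso 1 was below and iso 2 to iso 5 were above all controls, with differences of 0.11 and 0.099 without iso 1. In the stalk that holds the head, Atp5o differed by 0.10 ± 0.042 (SE, adjusted p = 0.449) and Atp5pb by 0.11 ± 0.084 (SE, adjusted p = 0.772).

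**Figure D4:**
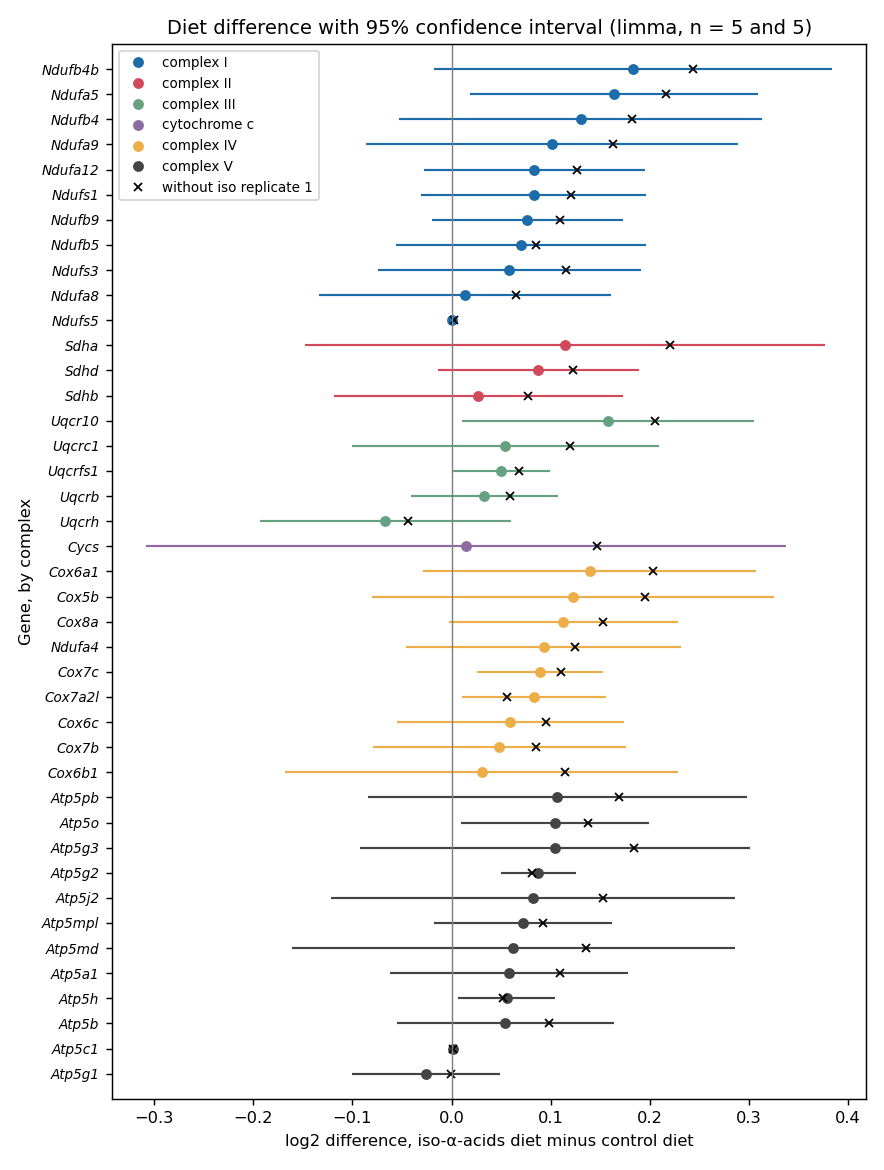
Difference between the diets for each of the 41 varying members (log2, iso-α-acids diet minus control diet) with its 95% confidence interval from limma, coloured by complex, and the value without iso 1 as a cross. Most points lie above 0 with intervals that include 0, and most crosses lie further from 0 than the points.

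Among other genes of the pathway, 2 that act on the assembly of the inner membrane passed the test. Of 24 measured genes for inner membrane import and cristae, 5 varied, and limma called 2 higher and 0 lower, where it called 0.59% and 0.171% of all probe sets. Without iso 1 it called 4 higher (1.57%), with Immt, of the cristae junctions (adjusted p = 0.00994, against 0.313 with all mice), and Phb, the partner of Phb2 (adjusted p = 0.0242, against 0.602), added. Rank products called 5 up and 0 down, against 3.68% and 3.17% of all probe sets and 33.2% and 28.2% of the varying ones. The 5 were all the varying genes of this list, and among them Afg3l2 differed by only 0.0025 (adjusted p = 0.164 by limma). Oxa1l, the insertase that places subunits of the chain into the membrane, was at 10.77 to 10.84 in the controls and 10.95 to 11.00 with the iso-α-acids diet, and rose by 0.18 ± 0.016 (SE, adjusted p = 0.00172 by limma). Phb2, a prohibitin that forms rings in the inner membrane, was at 10.34 to 10.44 and 10.56 to 10.59, and rose by 0.19 ± 0.020 (SE, adjusted p = 0.00442). For both the groups did not overlap, iso 1 was the highest mouse, and the adjusted p stayed under 0.05 when any single mouse was left out (0.000721 to 0.00999 and 0.00649 to 0.0226). This differs from most varying chain subunits, for which iso 1 was the lowest of its group. It also differs from Immt and Phb of the same list, where iso 1 was the lowest of its group, at 9.81 and 10.06. The difference of Oxa1l and Phb2 from the subunits was not tested.

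In the remaining lists limma called 0 genes in either direction with all 10 mice. Without iso 1 it called 2 genes for coenzyme Q synthesis, 2 other dehydrogenases, 5 mitochondrial ribosomal proteins and 1 gene for the exchange of ADP and phosphate higher, and 0 lower, where it called 1.57% and 0.662% of all probe sets. At an unadjusted p under 0.05, 1 gene of 12 for coenzyme Q synthesis, 4 of 9 for other dehydrogenases that feed the chain, and 6 of 76 mitochondrial ribosomal proteins were higher, and 0, 0 and 5 were lower, against 4.81% and 5.02% of all probe sets. Rank products called 3, 4 and 6 of them upregulated, and 1 of the dehydrogenases, Prodh, downregulated, against 3.68% and 3.17% of all probe sets and 33.2% and 28.2% of the varying ones. The varying genes of these lists numbered 5, 7 and 11. Among these, 1, 4 and 4 were higher and 0 lower at an unadjusted p under 0.05, against 22.6% and 14.6% of varying probe sets. The 5 ribosomal proteins counted as lower were all flat, and nothing is read from them. Coq7, a hydroxylase of coenzyme Q synthesis, differed by 0.27 ± 0.061 (SE, adjusted p = 0.123, and 0.0428 without iso 1). Mrps18b, of the small ribosomal subunit, differed by 0.29 ± 0.066 (SE, adjusted p = 0.126, and 0.0362 without iso 1). Chdh, choline dehydrogenase, which passes electrons to coenzyme Q, was at 8.87 to 9.10 in the controls and 9.18 to 9.67 in the iso-α-acids diet group. The groups did not overlap, and the difference was 0.52 ± 0.092 (SE, adjusted p = 0.0551 by limma, and 0.00256 without iso 1). Of 39 measured assembly factors outside the Ndufaf names 4 varied, of which Cox20, a complex IV assembly factor, differed by 0.13 ± 0.035 (SE, adjusted p = 0.198). Rank products called 2 of the 39 up, Cox20 and Cmc1, and 0 down, and Cmc1 differed by only 0.0027. At an unadjusted p under 0.05, 3 of the 39 were higher and 3 lower. The 3 higher ones varied, and the 3 lower ones were flat, so nothing is read from the lower ones. Of 9 genes for the exchange of ADP and phosphate 3 varied, with Vdac1, a channel of the outer membrane, at 0.087 ± 0.022 (SE, adjusted p = 0.177, and 0.0435 without iso 1). Rank products called 1 of the 9, Vdac1, up and 0 down. At an unadjusted p under 0.05, 3 of the 9 were higher, all of them varying, and 0 lower. For this list and the assembly factors, the rank product shares were 3.68% and 3.17% of all probe sets and 33.2% and 28.2% of varying ones. The shares at an unadjusted p under 0.05 were 4.81% and 5.02% of all probe sets and 22.6% and 14.6% of varying ones. Of 17 regulators of mitochondrial biogenesis only Ppara varied, with a difference of -0.089 ± 0.12 (SE, adjusted p = 0.892) that was 0.016 without iso 1. Rank products called 0 of the 17, and 2 were higher and 0 lower at an unadjusted p under 0.05. Those 2 were flat, and nothing is read from them. Of the 13 subunits encoded in mitochondrial DNA, 0 were found by the gene symbols searched, so they were not analysed here.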

How the data were processed

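Total RNA of 10 livers was read on Clariom S Mouse Arrays. The deposited values, 1 per probe set and array, were made by the authors by quantile normalization and qFARMS, a factor analysis of the probes of a set, in R. They were read as log2 values from their range of 4.94 to 13.37, since no source used here states the log base, and the qFARMS settings are not given in the sources used here. qFARMS shrinks sets whose probes do not vary together, so many values are almost constant and small differences may be understated. For arrays, their number limits the precision.

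The values were used as deposited. Symbols came from the platform annotation, and all 95 members were found by identifier in a RefSeq table of GRCm38.p6, with 0 symbols changed. The diets were compared with limma 3.58.1 (lmFit, then eBayes with no trend and 0.348 prior degrees of freedom, two-sided, adjusted p under 0.05 over all 22206 probe sets) in R 4.3.3. Rank products took the median over 120 pairings with p from a gamma distribution and a Benjamini-Hochberg adjustment. A call also had to share the sign of the mean difference. The settings of the authors' own rank products are not given in the sources used here, and their counts differ from those found here. Each replicate is a separate mouse by its label. The fit was checked on simulated data. Alternatives were leaving out each mouse, 2 scalings, other variance models, array weights, a replicate block, filters and thresholds.

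Named members were, in each complex, the 3 varying ones with the largest positive difference and up to 2 with a difference below 0, core subunits and isoforms of other tissues. Ndufs3, Cox7c, Cox7a2l and Atp5g2 were added after their values were seen. Up to 3 varying genes of each pathway list were taken by adjusted p. Immt, Phb and Prodh fell outside that rule and were named for their calls, after their values were seen. The members and lists were chosen with earlier results of these data known. Only the arrays were used.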

Additional observations from a re-analysis of the deposited data

Results flagged for a closer look

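In 62 groups of 5 mice, covering the levels of the named members and the mean of each complex, 14 held a mouse whose gap to its nearest neighbour was over 0.71 of the group's range, and 11 of the 14 were iso 1. Chance marks about 1 in 20 groups that are independent and taken without regard to their values. That rate does not hold here, because Ndufs3, Cox7c, Cox7a2l and Atp5g2 were added after their values were seen. The groups also share the same arrays, and the complex means contain named members. Iso 1 lay far below the other iso-α-acids diet mice for Atp5b (gap 0.932 of the range), Uqcrc1 (0.914), Ndufs3 (0.896), Atp5g3 (0.798), Atp5a1 (0.767), Cox6a1 (0.75), Atp5g1 (0.745), Cycs (0.744), Sdha (0.741) and the mean of complex II (0.758). It lay far above them for Cox7a2l (0.724). Control 1 lay far above the other controls for Cox7a2l (0.962), Atp5pb (0.879) and the mean of complex I (0.73).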

How the results depend on the processing

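Of 25 named varying members, 23 kept the direction of their difference under every setting run. Sdhb and Cycs did not: after another quantile normalization they were at -0.014 and -0.025, and with single mice left out they ran from -0.0058 to 0.078 and from -0.043 to 0.15. Only leaving out mice, the scalings and array weights could change a direction, because the other settings reuse the same group means. Many of the 25 were named for the size of their difference. Of all 41 varying members, 37 had differences above 0 without iso 2 and 35 without iso 3, against 39 with all mice. The number of members called higher was 0, and it was 0 to 2 with single mice left out, 11 by rank products, 1 when only varying probe sets were fitted, and 21 with that filter and without iso 1, which was chosen after seeing the data. It was 0 under the other settings, and 0 members were called lower under any. Over all probe sets, 131 were higher and 38 lower. With single mice left out these were 65 to 349 and 6 to 147, by rank products 818 and 703, with varying probe sets alone 327 and 168, with that filter and without iso 1 648 and 347, and at an adjusted p under 0.01 51 and 3. With a minimum difference of 0.1, 24 were lower, and quantile normalizing again gave 123 higher and 71 lower. For these the cause was not tested, except that a stricter threshold keeps fewer. The replicate number as a block gave 21 higher and 1 lower over all probe sets and 0 members either way. The numbers did not pair the mice: deviations of same-numbered mice correlated at -0.21 to 0.23, and no number was most like itself. With 5 mice per diet and differences mostly under 0.2, differences of this size were near the spread between mice, and the 54 flat members give no information.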
